A study of Homo sapiens with 12 samples.

Results

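The microRNA and RNA interference machinery of IGROV-1, a line of human ovarian carcinoma cells, is described here through the transcripts of DICER1, DROSHA, DGCR8, XPO5, AGO1, AGO2, AGO3, AGO4, TARBP2 and TNRC6A. Its members were taken by name: every probe set that the platform annotation gives to a single one of these 10 symbols, older aliases included. This gave 31 of the 41097 single-symbol probe sets and 9 of the 19775 genes. TNRC6A and DICER1 had 6 probe sets each, AGO1, AGO3 and AGO4 had 4 each, XPO5 had 3, TARBP2 had 2, and DROSHA and AGO2 had 1 each. DGCR8 had 0, because its 4 probe sets are annotated to DGCR8 and MIR1306 together, and so it has no value below. For AGO2, 3 more probe sets are shared with CASC7 and were not used.

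The 12 arrays (Affymetrix U133 Plus 2.0) fall into 4 groups of 3. The shCXCR4 I and shCXCR4 II cells were transfected with a plasmid for one of 2 short hairpin RNAs (shRNAs) against CXCR4, a chemokine receptor, and each is a line grown from an individual clone. Mock cells received a plasmid with a scrambled hairpin and are a pool of clones. All 3 hairpin groups went through Lipofectamin 2000 and 4 µg/ml puromycin for 30 days, while Parental cells carried no hairpin and received neither agent. A comparison of a shCXCR4 line with Mock therefore holds the knockdown, the hairpin sequence and a clone against a pool, which cannot be told apart. A comparison with Parental adds the plasmid, transfection and selection.

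The pathway makes and uses small RNAs that silence messenger RNAs. In the nucleus, the Microprocessor, formed by the ribonuclease DROSHA and its RNA-binding partner DGCR8, cuts a microRNA hairpin out of its long primary transcript. XPO5 (exportin-5) carries the hairpin to the cytoplasm, where DICER1, with its double-stranded RNA-binding partner TARBP2, cuts off the loop. One strand is loaded into an Argonaute protein (AGO1 to AGO4), of which AGO2 is the one best known to cut its target, and TNRC6A (GW182) bridges Argonaute to the enzymes that shorten the target's poly(A) tail. A short hairpin RNA made from a plasmid uses the same exporter, DICER1 and Argonautes, typically without the DROSHA step, so the hairpin groups load this machinery with an additional substrate. The comparisons of the hairpin groups with Parental ask whether the RNA levels of the machinery differ when it carries such a hairpin, and those of the shCXCR4 lines with Mock ask whether they differ between the lines that silence CXCR4 and cells with a scrambled hairpin.

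All values are log2 values from RMA, and a difference of 1 is 2-fold. A difference passed the test at a limma adjusted p under 0.05, adjusted over all 41097 probe sets. The arrays of a group correlated at 0.996 to 0.998 and array medians lay between 4.25 and 4.39. CXCR4 checked the labels, since on 217028_at it had -1.49 in shCXCR4 I and -1.96 in shCXCR4 II against Mock (limma adjusted p = 8.53e-08 and 4.48e-09). Of the epithelial markers, PAX8 (10.1), EPCAM (11.8), CLDN3 (10.7), KRT8 (8.54), KRT18 (11.1) and KRT19 (11.2) were bright and WT1 was at 6.32, and MUC16 was at 2.98. Of the markers of other cells, COL1A1 was at 6.78, PECAM1 at 6.48 and CD3E at 5.30, while PTPRC (3.08), CD14 (3.17), COL3A1 (3.73), PDGFRB (3.26), THY1 (4.81), CDH5 (2.91) and VWF (4.73) lay between 2.91 and 4.81. The Mock arrays had a wider spread over probe sets, with an interquartile range of 3.38 to 3.43 against 3.19 to 3.31 on the other 9 arrays. No label states whether the 3 arrays of a group come from separate cultures, so each p-value rests on a spread among arrays that may be technical.

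Against Mock, all member probe sets that passed the test were lower, in both shCXCR4 lines. In shCXCR4 I, 10 of the 31 probe sets (32.3%) fell and 0 rose, where 17.6% of all probe sets changed. In shCXCR4 II, 5 (16.1%) fell and 0 rose, a share called that is no higher than the 19.4% of all probe sets. On each of these probe sets the 3 arrays of the line lay below the 3 Mock arrays, which 10.5% of all probe sets did past the test in shCXCR4 I and 11.4% in shCXCR4 II. Counting each gene by its brightest probe set, 5 of the 9 genes fell in shCXCR4 I (DICER1, DROSHA, AGO2, AGO3 and TNRC6A) and 3 in shCXCR4 II (DICER1, DROSHA and TNRC6A), where 12.2% and 13.5% of all genes fell. Every member gene except AGO4 has a mean of at least 6 on that probe set, and 24% and 25.8% of genes that bright fell. The median difference over the 31 probe sets was -0.13 in shCXCR4 I and -0.03 in shCXCR4 II, against 0.02 over all probe sets in each. At an unadjusted p under 0.05, 10 probe sets were lower and 0 higher in shCXCR4 I, and 7 lower and 0 higher in shCXCR4 II, where 16.4% and 17.4% of all probe sets were lower at that threshold.

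**Figure D1:**
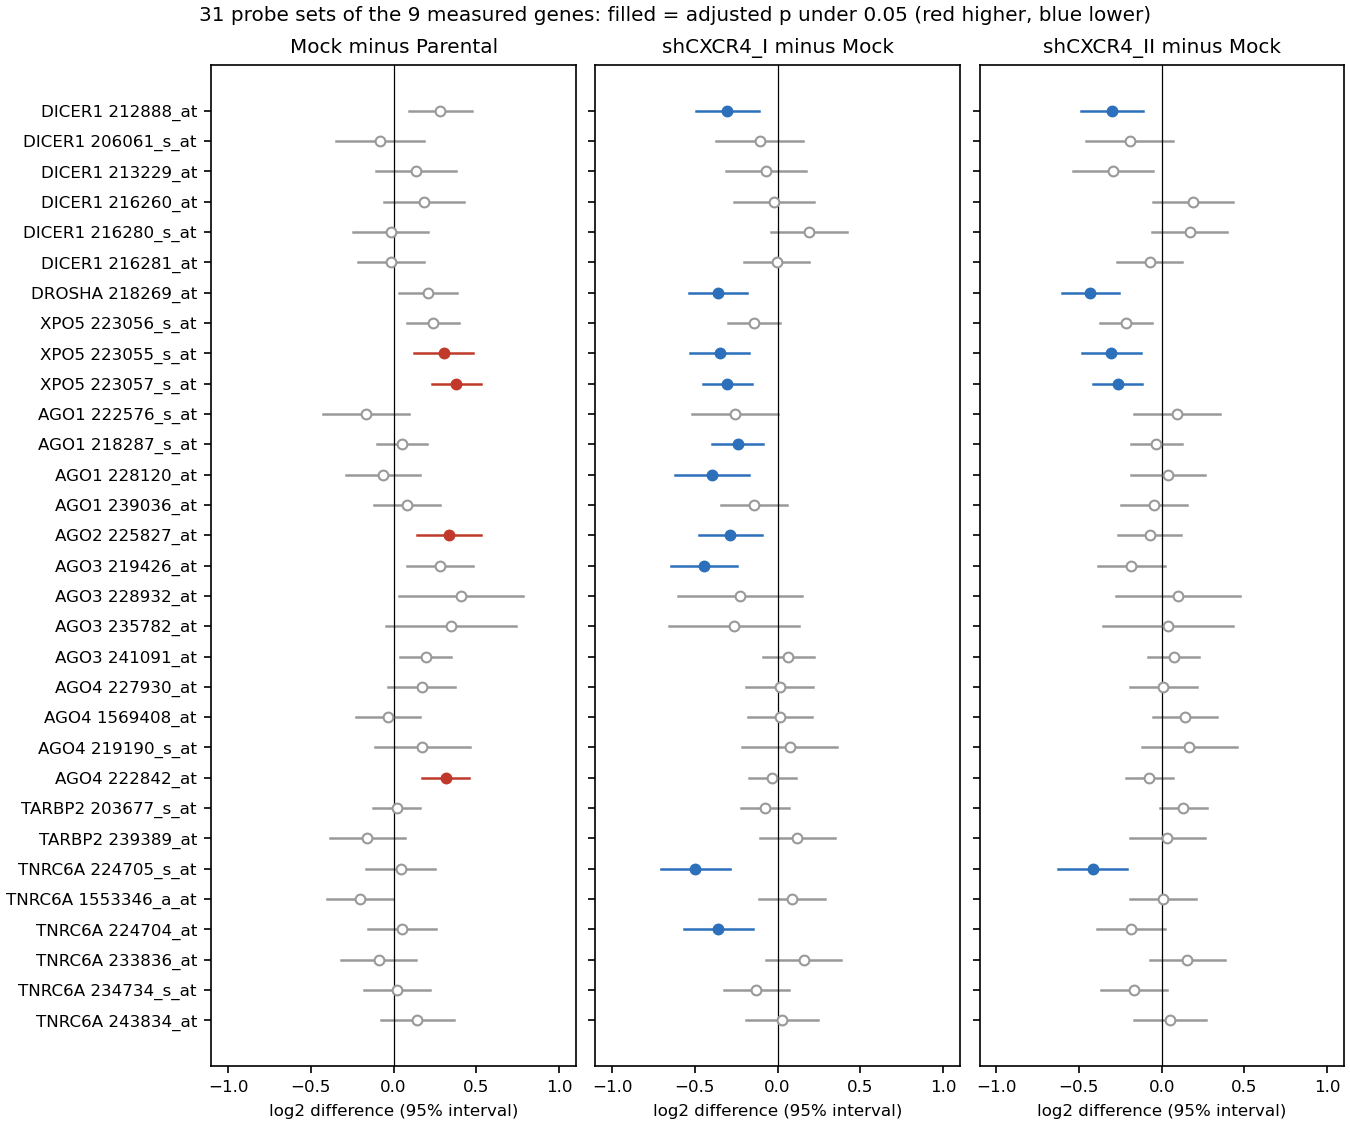
Log2 difference (x axis) of each of the 31 probe sets of the 9 measured genes, with limma's 95% interval, for Mock minus Parental, shCXCR4 I minus Mock and shCXCR4 II minus Mock. Filled points passed the test: 4 are higher in Mock than in Parental, 10 are lower in shCXCR4 I and 5 lower in shCXCR4 II than in Mock.

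The Mock arrays stood apart from the others on bright probe sets in general. Of the 13342 probe sets with a mean of at least 6, 24.2% fell in shCXCR4 I and 25.4% in shCXCR4 II against Mock, and 13.8% rose in Mock against Parental. Their median difference was -0.09 in shCXCR4 I and -0.10 in shCXCR4 II, and 0.06 in Mock against Parental. Of the 31 member probe sets 14 are this bright. Among these 14, 9 fell in shCXCR4 I (median -0.30), 5 fell in shCXCR4 II (median -0.20) and 3 rose in Mock against Parental (median 0.17). The part of this shift in the members' differences was not tested. After quantile normalization, which gives all arrays 1 distribution, 5 member probe sets fell in shCXCR4 I, and 2 fell and 1 rose in shCXCR4 II. After centring each array on its median, 10 fell in shCXCR4 I and 7 in shCXCR4 II. Over all probe sets, the share of calls that were higher was 39.5% in shCXCR4 I and 39.9% in shCXCR4 II against Mock, 48% and 47.4% after quantile normalization and 21.6% and 19.4% after centring.

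**Figure D2:**
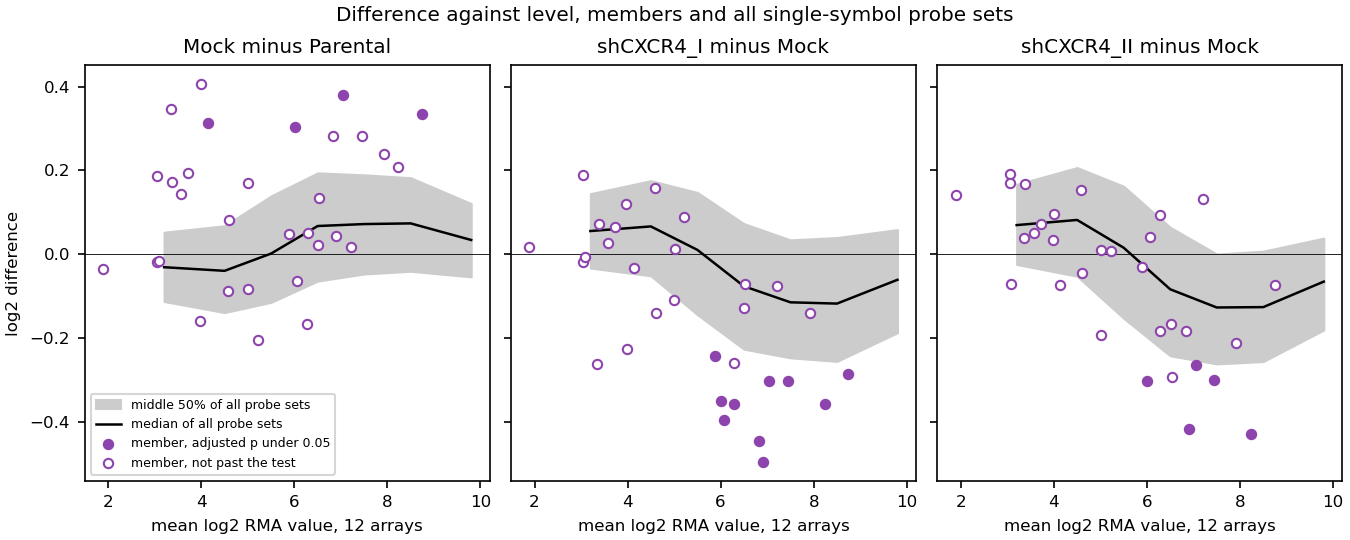
Log2 difference (y axis) against the mean log2 value over 12 arrays (x axis) for Mock minus Parental, shCXCR4 I minus Mock and shCXCR4 II minus Mock. The line and the grey band are the median and middle 50% of all single-symbol probe sets, and purple points are the 31 member probe sets, filled where they passed the test. Bright probe sets as a whole lie above 0 in Mock minus Parental and below 0 in both lines minus Mock, and the filled members lie outside the grey band or, for XPO5 223057_s_at in shCXCR4 II, at its edge.

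DROSHA, the nuclear ribonuclease that starts microRNA processing, was lower in both lines than in Mock. On 218269_at its log2 values were 8.23, 8.07 and 8.08 in shCXCR4 I, 8.19, 8.08 and 7.90 in shCXCR4 II, 8.46, 8.47 and 8.52 in Mock and 8.31, 8.20 and 8.32 in Parental cells. Every array of the lines was below every Mock array, and the arrays of shCXCR4 I overlapped those of shCXCR4 II and of Parental. DROSHA fell by 0.36 in shCXCR4 I (SE 0.08, limma adjusted p = 0.00761) and by 0.43 in shCXCR4 II (SE 0.08, limma adjusted p = 0.0025) against Mock, or -22% and -25.8% on the linear scale. Against Parental the differences were -0.15 in shCXCR4 I (limma adjusted p = 0.284) and -0.22 in shCXCR4 II (limma adjusted p = 0.0947), and Mock differed from Parental by 0.21 (limma adjusted p = 0.129), none of them past the test. The group means thus run from Mock through Parental to shCXCR4 I and shCXCR4 II, and no neighbours in that order differed past the test. In bulk RNA, fewer cells that make a transcript and less of it per cell cannot be told apart. The call in shCXCR4 I ended after quantile normalization (-0.26, limma adjusted p = 0.0803), and that in shCXCR4 II held under every alternative tried.

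The start region of DROSHA is shown here, and that of XPO5 below, as nuclear members with probe sets that fell in both lines. It covers 250 bases before to 50 after the gene's start, from RefSeq (GRCh38.p14), chr5:31532044-31532343 on the minus strand. Capitals mark CCAAT boxes, which bind NF-Y, and GC boxes (GGGCGG), which bind SP1, searched on both strands:
DROSHA promoter: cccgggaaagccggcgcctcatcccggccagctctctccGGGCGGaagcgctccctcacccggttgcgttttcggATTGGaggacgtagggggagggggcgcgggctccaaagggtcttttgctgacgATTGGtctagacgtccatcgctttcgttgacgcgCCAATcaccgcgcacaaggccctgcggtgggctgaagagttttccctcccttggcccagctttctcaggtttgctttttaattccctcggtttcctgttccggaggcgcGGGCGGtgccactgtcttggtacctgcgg
It holds 3 CCAAT and 2 GGGCGG matches, which do not overlap. CCAAT occurs at least 3 times in 3.26% of the 35116 RefSeq promoter windows of this length, and GGGCGG occurs in 45% of them. CACGTG (7.26% of all windows), TGACGTCA (1.85%), CCGGAAG (10.3%) and the NRF1 palindrome of 10 letters (1.24%) were also searched and have no match in this window. Among the other members, the DGCR8 window holds 4 CCAAT matches, 1 of the TARBP2 windows holds 3, the TNRC6A window holds 1 and the DICER1 windows hold 0 or 1.

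DGCR8, the RNA-binding partner in the Microprocessor, cannot be read from single-symbol probe sets because its transcript carries a microRNA of its own. MIR1306 lies at chr22:20086072-20086129 on the plus strand, within the DGCR8 transcript, and its mature forms in RefSeq (GRCh38.p14) are printed with the seed, bases 2 to 8, in capitals to show what the shared probe sets are named for:
miR-1306-5p: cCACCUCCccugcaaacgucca
miR-1306-3p: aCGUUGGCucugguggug
The Microprocessor is known to cut hairpins within the DGCR8 transcript itself.

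XPO5, the nuclear exporter of microRNA precursors and short hairpin RNAs, was higher in Mock than in the other 3 groups on 2 of its 3 probe sets. On 223057_s_at its log2 values were 7.04, 6.98 and 6.93 in shCXCR4 I, 7.08, 6.95 and 7.04 in shCXCR4 II, 7.20, 7.28 and 7.38 in Mock and 6.90, 6.90 and 6.93 in Parental cells. The Mock arrays lay above all other arrays. XPO5 fell by 0.30 in shCXCR4 I (SE 0.07, limma adjusted p = 0.00742) and by 0.26 in shCXCR4 II (SE 0.07, limma adjusted p = 0.0159) against Mock, and it rose by 0.38 in Mock against Parental (SE 0.07, limma adjusted p = 0.00267). The probe set 223055_s_at passed in the same 3 comparisons, at -0.35 (limma adjusted p = 0.00987), -0.30 (limma adjusted p = 0.0208) and 0.30 (limma adjusted p = 0.0314). The brightest one, 223056_s_at, did not pass, at -0.14 (limma adjusted p = 0.21) in shCXCR4 I and -0.21 (limma adjusted p = 0.0557) in shCXCR4 II against Mock, and 0.24 (limma adjusted p = 0.0523) in Mock against Parental. All 3 probe sets thus have the same order of signs, and neither line differed from Parental past the test on any of them.

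Leaving out single arrays ended some XPO5 calls. On 223057_s_at the call in shCXCR4 II ended without shCXCR4 II replicate 2 or Mock replicate 3 (limma adjusted p = 0.0634 to 0.0674). On 223055_s_at it ended without shCXCR4 II replicate 1 or 2 or Mock replicate 3 (limma adjusted p = 0.0593 to 0.0917), and Mock against Parental ended without any Mock array or without Parental replicate 2 or 3 (limma adjusted p = 0.0649 to 0.118). After quantile normalization 223057_s_at had -0.20 in shCXCR4 I (limma adjusted p = 0.0527) and -0.15 in shCXCR4 II (limma adjusted p = 0.152), with its rise in Mock still past the test, while 223055_s_at lost its rise in Mock (0.25, limma adjusted p = 0.0681) and its fall in shCXCR4 II (-0.25, limma adjusted p = 0.0559). The XPO5 start region, chr6:43575989-43576288 on the minus strand (RefSeq, GRCh38.p14), is shown with GC boxes on either strand in capitals:
XPO5 promoter: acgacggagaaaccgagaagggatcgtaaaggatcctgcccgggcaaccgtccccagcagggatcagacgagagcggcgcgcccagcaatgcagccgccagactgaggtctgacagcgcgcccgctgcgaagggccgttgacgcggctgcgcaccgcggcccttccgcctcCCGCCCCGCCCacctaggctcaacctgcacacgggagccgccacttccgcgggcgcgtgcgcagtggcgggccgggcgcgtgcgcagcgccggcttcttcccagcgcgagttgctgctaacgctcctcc
It holds 2 GGGCGG matches on the opposite strand, overlapping at their ends, and no match to the other 5 motifs searched.

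**Figure D3:**
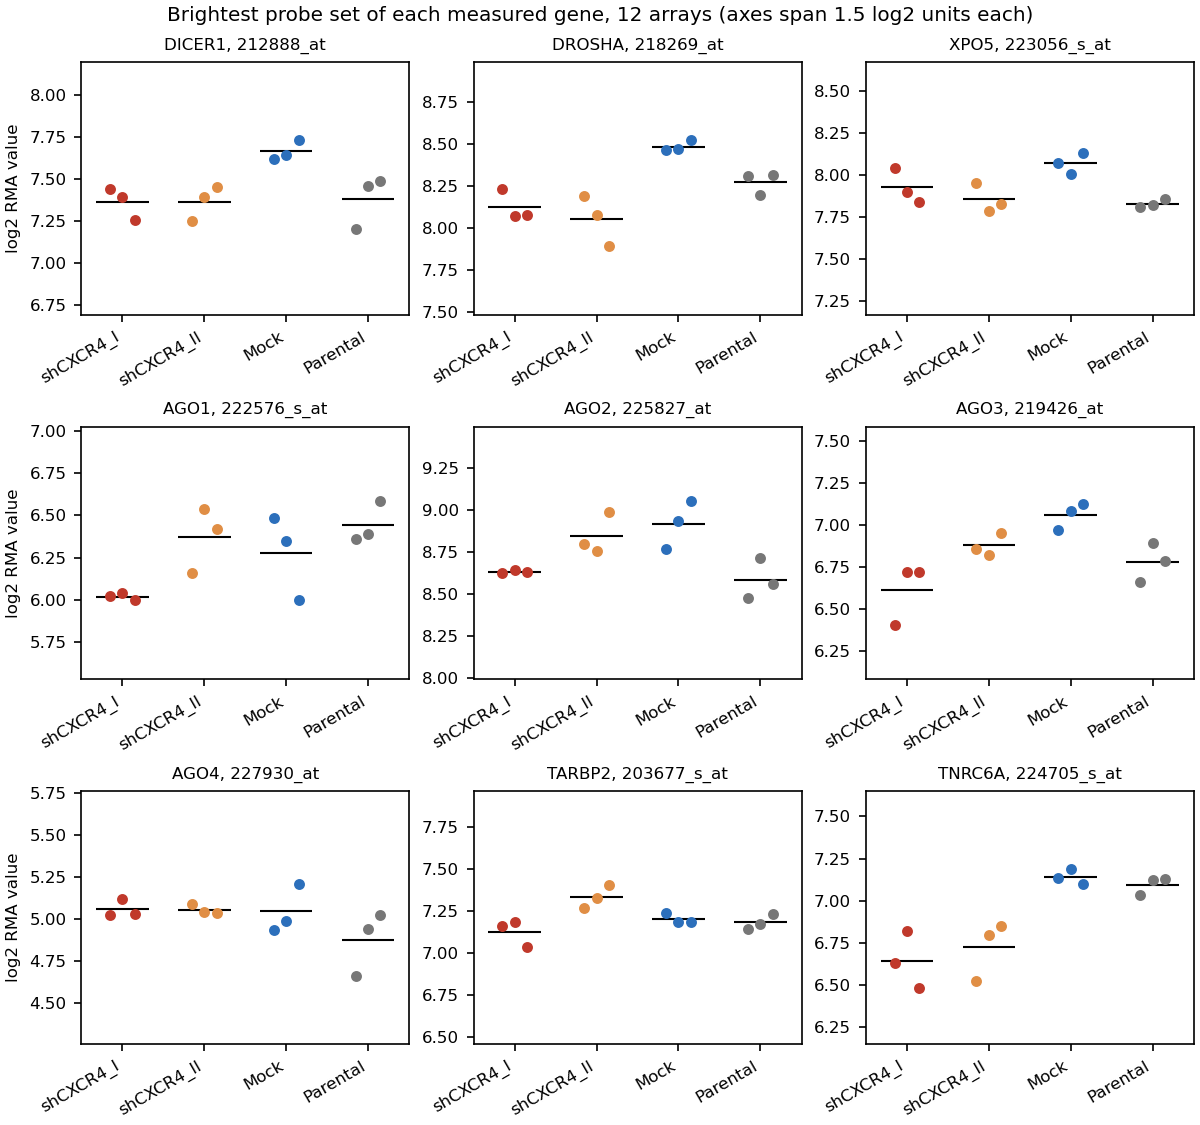
Log2 RMA value (y axis, spanning 1.5 in each panel) on the brightest probe set of each of the 9 measured genes, with 1 point per array and a line at the mean of each group of 3. All arrays of both lines lie below all Mock arrays for DROSHA, DICER1, TNRC6A and AGO3, as do those of shCXCR4 I for AGO2 and of shCXCR4 II for XPO5. Of these differences, those of AGO3 and XPO5 in shCXCR4 II did not pass the test. The groups of XPO5, TARBP2 and AGO4 have no difference past the test on these probe sets.

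DICER1, which cuts the loop off precursor hairpins, was lower in both lines than in Mock on 1 of its 6 probe sets. On 212888_at its log2 values were 7.44, 7.39 and 7.26 in shCXCR4 I, 7.25, 7.40 and 7.45 in shCXCR4 II, 7.62, 7.64 and 7.73 in Mock and 7.20, 7.46 and 7.49 in Parental cells. The Mock arrays lay above all others, and the lines and Parental overlapped one another. DICER1 fell by 0.30 in each line against Mock (SE 0.09 each, limma adjusted p = 0.0296 in shCXCR4 I and 0.0292 in shCXCR4 II), and both lines differed from Parental by -0.02 (limma adjusted p = 0.918 and 0.925). Between the lines the difference was -0.00, with a 95% interval of -0.19 to 0.19. The second brightest probe set, 213229_at, had values of 6.72, 6.49 and 6.56 in shCXCR4 I, 6.14, 6.51 and 6.44 in shCXCR4 II, 6.71, 6.56 and 6.71 in Mock and 6.32, 6.53 and 6.71 in Parental cells, which overlap, and did not pass in any comparison. Over the 6 probe sets, the difference from Mock ran from -0.30 to 0.19 in each line.

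The DICER1 calls rest on few arrays. That in shCXCR4 I ended without shCXCR4 I replicate 2 or 3 or Mock replicate 2 or 3 (limma adjusted p = 0.0586 to 0.125), and that in shCXCR4 II without shCXCR4 II replicate 1 or 2 or Mock replicate 2 or 3 (limma adjusted p = 0.0618 to 0.111). Both ended after quantile normalization (-0.20 and -0.17, limma adjusted p = 0.118 and 0.184) and with the mean of the gene's probe sets (-0.05 and -0.08, limma adjusted p = 0.579 and 0.348). The call in shCXCR4 II also ended with array weights (limma adjusted p = 0.0542) and with only the groups compared (limma adjusted p = 0.0526). The dim probe set 216260_at rose by 0.38 in shCXCR4 II against Parental (SE 0.11, limma adjusted p = 0.0425), at 3.00, 3.46 and 3.27 against 2.90, 2.86 and 2.84, and this call ended without any of 8 arrays, among them each Parental array (limma adjusted p = 0.0501 to 0.172).

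TARBP2, which holds the double-stranded RNA beside DICER1, passed the test in none of the 7 comparisons on either of its 2 probe sets. Its log2 values on 203677_s_at were 7.16, 7.18 and 7.03 in shCXCR4 I, 7.27, 7.32 and 7.40 in shCXCR4 II, 7.24, 7.18 and 7.18 in Mock and 7.14, 7.17 and 7.23 in Parental cells. The shCXCR4 II arrays lay above all others, by 0.13 over Mock (95% interval -0.01 to 0.28, limma adjusted p = 0.187) and by 0.15 over Parental (limma adjusted p = 0.171). shCXCR4 I differed from Mock by -0.07 (95% interval -0.22 to 0.07). After quantile normalization TARBP2 passed in shCXCR4 II, at 0.26 against Mock (limma adjusted p = 0.00977) and 0.22 against Parental (limma adjusted p = 0.0306).

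Among the 4 Argonautes, AGO1 differed between the lines on 1 of its 4 probe sets, 228120_at, which is not its brightest. On it AGO1 was lower in shCXCR4 I than in the other groups. Its log2 values were 5.82, 5.72 and 5.68 in shCXCR4 I, 6.33, 6.06 and 6.14 in shCXCR4 II, 5.97, 6.06 and 6.38 in Mock and 6.27, 6.24 and 6.09 in Parental cells. All 3 shCXCR4 I arrays lay below the other 9, which overlap. On this probe set AGO1 fell in shCXCR4 I by 0.44 against shCXCR4 II (SE 0.10, limma adjusted p = 0.03), by 0.40 against Mock (limma adjusted p = 0.0171) and by 0.46 against Parental (limma adjusted p = 0.00856), while shCXCR4 II differed from Mock by 0.04 (95% interval -0.18 to 0.26). It is the 1 member probe set of 31 (3.23%) that passed between the lines, a share no higher than the 4.11% of all probe sets.

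The other AGO1 probe sets had the same sign in part. 218287_s_at fell by 0.24 in shCXCR4 I against Mock (SE 0.07, limma adjusted p = 0.0302) and had -0.21 against shCXCR4 II (limma adjusted p = 0.128). The brightest, 222576_s_at, had 6.02, 6.04 and 6.00 in shCXCR4 I, 6.16, 6.54 and 6.42 in shCXCR4 II, 6.48, 6.35 and 6.00 in Mock and 6.36, 6.39 and 6.59 in Parental cells. It fell against Parental (-0.43, limma adjusted p = 0.0327), and did not pass against Mock (-0.26, limma adjusted p = 0.164), whose replicate 3 lay as low as shCXCR4 I, or against shCXCR4 II (-0.35, limma adjusted p = 0.136). On 239036_at no comparison passed.

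Most AGO1 calls ended when single arrays were left out. The 228120_at difference between the lines ended without any shCXCR4 I array or without shCXCR4 II replicate 1 (limma adjusted p = 0.0591 to 0.121), and that against Mock without shCXCR4 I replicate 2 or 3 or Mock replicate 3 (0.0519 to 0.0663), while that against Parental held. The 218287_s_at call ended without shCXCR4 I replicate 2 or 3 or Mock replicate 1 or 3 (0.073 to 0.125), after quantile normalization (-0.21, limma adjusted p = 0.057) and with only the groups compared (0.0743), and the 222576_s_at call ended without any shCXCR4 I or Parental array (0.0514 to 0.137).

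**Figure D4:**
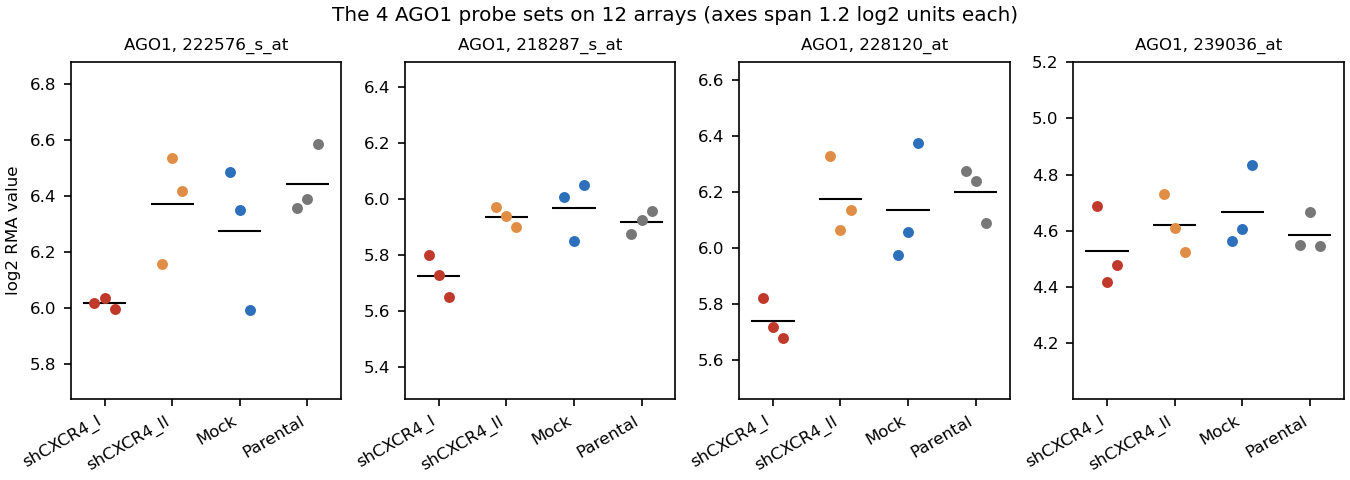
Log2 RMA value (y axis, spanning 1.2 in each panel) on the 4 AGO1 probe sets, with 1 point per array and a line at each group mean. The shCXCR4 I arrays lie below all others on 228120_at and 218287_s_at, and overlap a Mock array on 222576_s_at and other groups on 239036_at.

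AGO2, the Argonaute that cuts targets, was higher in Mock than in shCXCR4 I and Parental cells. On 225827_at its log2 values were 8.62, 8.64 and 8.64 in shCXCR4 I, 8.80, 8.75 and 8.99 in shCXCR4 II, 8.77, 8.94 and 9.05 in Mock and 8.48, 8.71 and 8.56 in Parental cells. The shCXCR4 II arrays overlapped Mock, and the shCXCR4 I arrays overlapped Parental. AGO2 rose by 0.34 in Mock against Parental (SE 0.09, limma adjusted p = 0.0275) and fell by 0.29 in shCXCR4 I against Mock (SE 0.09, limma adjusted p = 0.0409). It had -0.07 in shCXCR4 II against Mock (limma adjusted p = 0.608) and 0.26 in shCXCR4 II against Parental (limma adjusted p = 0.0717), and the difference of shCXCR4 I from shCXCR4 II, -0.21, did not pass (limma adjusted p = 0.242). Its group means run from Mock through shCXCR4 II and shCXCR4 I to Parental, and no neighbours in that order differed past the test. The rise in Mock ended without Mock replicate 2 or 3 or Parental replicate 1 or 3 (limma adjusted p = 0.0796 to 0.115). It also ended with only the groups compared (limma adjusted p = 0.0633). The fall in shCXCR4 I ended without any of its arrays, Mock replicate 2 or 3 or Parental replicate 3 (limma adjusted p = 0.0551 to 0.144), and after quantile normalization (-0.19, limma adjusted p = 0.126). With only the groups compared this fall ended too (limma adjusted p = 0.0508).

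AGO3 fell in shCXCR4 I on its brightest probe set. On 219426_at its log2 values were 6.41, 6.72 and 6.72 in shCXCR4 I, 6.86, 6.82 and 6.95 in shCXCR4 II, 6.97, 7.08 and 7.13 in Mock and 6.66, 6.89 and 6.79 in Parental cells. Both lines lay below Mock with no overlap, and shCXCR4 I also lay below shCXCR4 II. The fall in shCXCR4 I against Mock was 0.45 (SE 0.09, limma adjusted p = 0.00469). The other differences did not pass: -0.18 in shCXCR4 II against Mock (limma adjusted p = 0.188), -0.26 between shCXCR4 I and shCXCR4 II (limma adjusted p = 0.155) and 0.28 in Mock against Parental (limma adjusted p = 0.074). The call in shCXCR4 I held without any single array and ended with the mean of the gene's 4 probe sets (-0.22, limma adjusted p = 0.0693).

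AGO4 did not fall in either line, and 1 dim probe set was higher in all 3 hairpin groups than in Parental. On 222842_at the log2 values were 4.22, 4.23 and 4.18 in shCXCR4 I, 4.25, 4.13 and 4.12 in shCXCR4 II, 4.25, 4.20 and 4.27 in Mock and 3.89, 3.87 and 4.02 in Parental cells. All 9 hairpin arrays lay above the 3 Parental arrays and overlapped one another. AGO4 rose by 0.28 in shCXCR4 I (limma adjusted p = 0.0118), by 0.24 in shCXCR4 II (limma adjusted p = 0.0303) and by 0.31 in Mock (limma adjusted p = 0.00753) against Parental, and these 3 differences share the Parental arrays. The brightest AGO4 probe set, 227930_at, had 0.18, 0.18 and 0.17 in the same order and did not pass (limma adjusted p = 0.259, 0.248 and 0.305). The rise in Mock on 222842_at held under every alternative tried, that in shCXCR4 I ended without Parental replicate 1 or 2 (limma adjusted p = 0.0505 to 0.0611), and that in shCXCR4 II without shCXCR4 II replicate 1 or 2 or Parental replicate 1 or 2 (0.0563 to 0.123) and after centring (0.20, limma adjusted p = 0.0681). The shCXCR4 II rise also ended with the trended robust variance (limma adjusted p = 0.0857) and with only the groups compared (limma adjusted p = 0.0847). AGO4, AGO1 and AGO3 are neighbouring protein-coding genes on chromosome 1. In shCXCR4 I against Mock, AGO1 fell on 2 of its 4 probe sets, not on its brightest, and AGO3 fell on 1 of 4, its brightest. On 227930_at, with a mean log2 value of 5.01, AGO4 had 0.01 in that comparison (95% interval -0.19 to 0.22).

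TNRC6A, the GW182 protein that links Argonaute to deadenylases, was lower in both lines than in Mock and also than in Parental. On 224705_s_at its log2 values were 6.63, 6.82 and 6.48 in shCXCR4 I, 6.52, 6.79 and 6.85 in shCXCR4 II, 7.13, 7.19 and 7.10 in Mock and 7.03, 7.12 and 7.13 in Parental cells. All 6 arrays of the lines lay below all 6 control arrays. Against Mock TNRC6A fell by 0.50 in shCXCR4 I (SE 0.10, limma adjusted p = 0.00303) and by 0.42 in shCXCR4 II (SE 0.10, limma adjusted p = 0.00917), or -29.1% and -25.1% on the linear scale. Against Parental it fell by 0.45 (limma adjusted p = 0.0066) and by 0.37 (limma adjusted p = 0.0221). Mock differed from Parental by 0.04 (95% interval -0.17 to 0.25) and shCXCR4 I from shCXCR4 II by -0.08 (95% interval -0.29 to 0.13).

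Of the other 5 TNRC6A probe sets, 224704_at fell in shCXCR4 I against Mock and 4 passed in no comparison. 224704_at had 6.17, 6.17 and 5.90 in shCXCR4 I, 6.21, 6.09 and 6.46 in shCXCR4 II, 6.39, 6.50 and 6.43 in Mock and 6.40, 6.39 and 6.38 in Parental cells, a fall of 0.36 in shCXCR4 I (SE 0.10, limma adjusted p = 0.0199) that ended without shCXCR4 I replicate 3 or Mock replicate 2 (limma adjusted p = 0.0714 to 0.0977). On 234734_s_at all 4 groups overlapped, at 6.64, 6.36 and 6.38 in shCXCR4 I, 6.48, 6.38 and 6.40 in shCXCR4 II, 6.60, 6.48 and 6.68 in Mock and 6.55, 6.44 and 6.71 in Parental cells. The 224705_s_at calls against Mock held under quantile normalization and without any single array, and all 4 of its calls ended with the mean of the 6 probe sets, at -0.12 and -0.09 against Mock and -0.12 and -0.10 against Parental. The fall of shCXCR4 II against Parental also ended without shCXCR4 II replicate 1 or Parental replicate 2 or 3 (limma adjusted p = 0.0758 to 0.0887). The paralogs TNRC6B (-0.21 in shCXCR4 I and -0.19 in shCXCR4 II) and TNRC6C (0.04 and 0.24) did not pass against Mock (limma adjusted p = 0.165, 0.195, 0.827 and 0.112).

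The mean of the 3 hairpin groups differed from Parental cells on few members. Between the mean of the 3 hairpin groups and Parental, 3 of the 31 probe sets rose and 0 fell, against 11.2% of all probe sets changed, so their share is no higher than that of the array. These were AGO4 222842_at, with 0.28 (SE 0.05, limma adjusted p = 0.00373), AGO3 241091_at, with 0.24 (SE 0.06, limma adjusted p = 0.015), and XPO5 223057_s_at, with 0.19 (SE 0.06, limma adjusted p = 0.042). On AGO3 241091_at the arrays ran from 3.71 to 3.87 in the lines, 3.66 to 3.83 in Mock and 3.47 to 3.62 in Parental, all dim. By their brightest probe sets 0 of the 9 genes passed in limma, against 13.2% of all genes, and 4 of the 9 had an unadjusted p under 0.05, as 25.9% of all genes had. TNRC6A 224705_s_at came close, at -0.26 (limma adjusted p = 0.0501), but the hairpin groups did not share this difference. Its group means were 6.64 in shCXCR4 I and 6.72 in shCXCR4 II, against 7.14 in Mock and 7.10 in Parental. The AGO4 difference held under every alternative tried, the AGO3 one ended without Parental replicate 1 or 3 (limma adjusted p = 0.0663 to 0.11), and the XPO5 one ended without any of 9 arrays (limma adjusted p = 0.0514 to 0.154), after centring (0.18, limma adjusted p = 0.0666) and with the replicate number as a block (0.19, limma adjusted p = 0.0663).

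Mock set against Parental, which compares a scrambled hairpin pool with untransfected cells, gave 4 of 31 probe sets higher and 0 lower, all 4 without overlap of arrays. These are 223055_s_at and 223057_s_at of XPO5, AGO2 225827_at and AGO4 222842_at, given above. These are 12.9% of the member probe sets, where over all probe sets 10.5% changed and 6.56% were higher without overlap. By brightest probe sets 1 of 9 genes (11.1%) passed, AGO2, against 12.5% of all genes. By either count the share called is close to that of the array. The median difference over the member probe sets was 0.13, against -0.00 over all probe sets, and the share of all calls that were higher was 62.8%, 54% after quantile normalization and 74% after centring.

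Each line set against Parental gave 5 called probe sets in shCXCR4 I (2 higher, 3 lower) and 4 in shCXCR4 II (3 higher, 1 lower), against 12.4% and 12.5% of all probe sets. By brightest probe sets, AGO1 and TNRC6A fell in shCXCR4 I and TNRC6A fell in shCXCR4 II, 2 and 1 of 9 genes against 14.5% and 14.4% of all genes. DROSHA, XPO5, DICER1, AGO2 and AGO3 of either line did not differ from Parental past the test on their brightest probe sets, and of the 5 genes that fell in shCXCR4 I against Mock, TNRC6A was the 1 that also fell against Parental on the same probe set. The dim AGO3 241091_at rose by 0.26 in shCXCR4 I (limma adjusted p = 0.0277) and by 0.27 in shCXCR4 II (limma adjusted p = 0.0255). Those calls ended without any shCXCR4 I array or Parental replicate 1 or 3 (0.0734 to 0.118), and without shCXCR4 II replicate 2 or 3 or Parental replicate 1 or 3 (0.0569 to 0.107). Both also ended after quantile normalization (limma adjusted p = 0.0585 in shCXCR4 I and 0.065 in shCXCR4 II), centring (0.0694 and 0.0748) and the trended robust variance (0.0725 and 0.0634), and that in shCXCR4 II with only the groups compared (0.0628). Between the lines 0 of the 9 genes passed by brightest probe set in limma, against 5.21% of all genes, and 4 had an unadjusted p under 0.05, as 18.1% of all genes had. The comparisons with Mock share the Mock arrays and those with Parental share the Parental arrays, so their values are not independent.

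Around the members, 116 further genes of the small RNA pathway were listed by function, of which 105 were measured. Against Mock, 27 fell and 2 rose in shCXCR4 I and 34 fell and 2 rose in shCXCR4 II, against 20.6% and 22.5% of all genes changed. Their median difference was -0.14 in shCXCR4 I and -0.10 in shCXCR4 II, against 0.02 over all genes in each. In Mock against Parental 15 rose and 2 fell (12.5% of all genes changed), and in the hairpin groups against Parental 5 rose and 12 fell (13.2%). For shCXCR4 I against Parental 4 rose and 16 fell, or 19% called, where 14.5% of all genes changed. For shCXCR4 II against Parental 4 rose and 14 fell, or 17.1%, against 14.4% of all genes. Between the lines 2 rose and 4 fell, or 5.71%, against 5.21% of all genes. In both lines, past the test and with no overlap with Mock, 24 of the 105 were lower and 1 was higher, where 7.96% and 4.3% of all genes were. The shift of bright probe sets on the Mock arrays bears on these counts too, and its part was not tested.

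**Figure D5:**
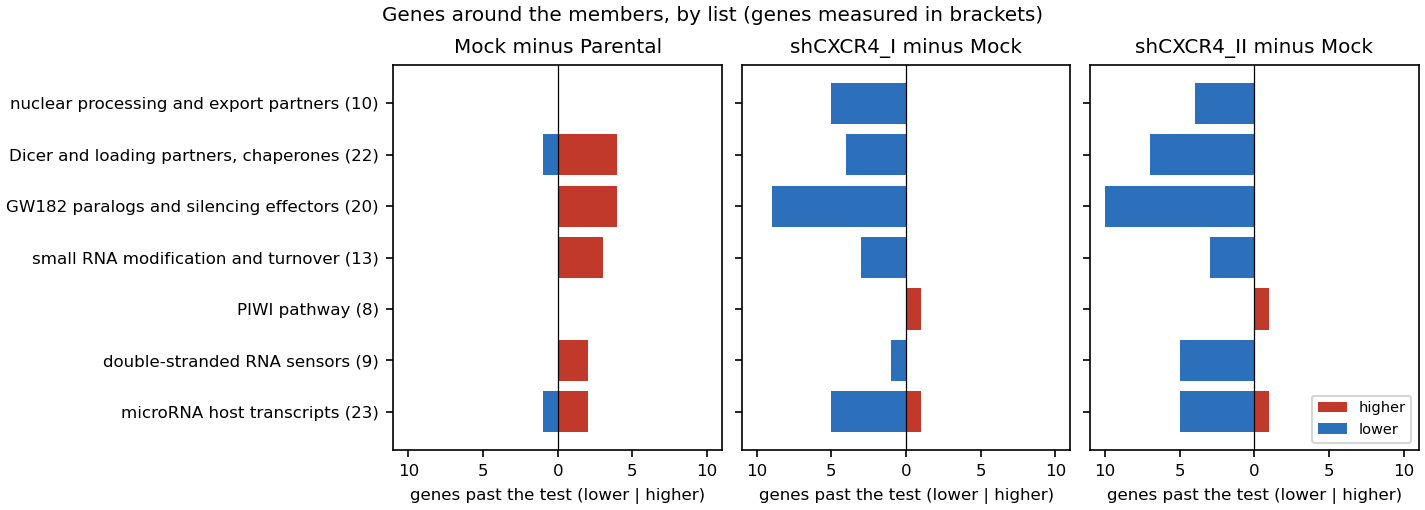
Number of genes past the test (x axis, lower to the left and higher to the right) in each of the 7 functional lists around the members, with the genes measured in brackets, for Mock minus Parental, shCXCR4 I minus Mock and shCXCR4 II minus Mock. In both lines minus Mock the list of GW182 paralogs and silencing effectors holds 9 and 10 genes lower, and most called genes of Mock minus Parental are higher.

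Of 20 measured silencing effectors, among them the partners of TNRC6A that shorten and decap target RNAs, 9 fell in shCXCR4 I and 10 in shCXCR4 II against Mock, and 0 rose, where 12.2% and 13.5% of all genes fell. With a mean of at least 6, 8 of 17 fell in shCXCR4 I and 9 of 17 in shCXCR4 II, against 24% and 25.8% of the 8348 genes that bright. CNOT1, the scaffold of the CCR4-NOT deadenylase, had -0.36 and -0.33, CNOT2 had -0.42 and -0.46, CNOT3 had -0.35 and -0.25, CNOT6 had -0.35 and -0.21 and CNOT6L had -0.21 and -0.28 in shCXCR4 I and shCXCR4 II. The decapping activators DCP1A (-0.35 and -0.28) and DCP1B (-0.34 and -0.32), the helicase DDX6 (-0.51 and -0.42) and the deadenylase subunit PAN3 (-0.25 and -0.39) make up the rest, and the exonuclease XRN1 fell in shCXCR4 II by 0.50. DCP1A also fell against Parental in both lines (-0.36 and -0.30), and PAN2, the catalytic partner of PAN3, rose against Parental in both (0.38 and 0.34) and in Mock (0.25, limma adjusted p = 0.0425). That rise in Mock ended without any of 8 arrays (limma adjusted p of up to 0.153), after quantile normalization, with the block and with only the groups compared. The calls of CNOT6L, DCP1B and PAN3 in shCXCR4 I and of CNOT1, CNOT3, CNOT6, DCP1B and DDX6 in shCXCR4 II each ended without Mock replicate 3, among other arrays, with limma adjusted p of up to 0.132 in shCXCR4 I and 0.123 in shCXCR4 II. Averaged over their probe sets, CNOT2 had -0.12 and -0.07, CNOT6L -0.04 and -0.06 and DDX6 -0.13 and -0.05 in shCXCR4 I and shCXCR4 II, none past the test (limma adjusted p = 0.081 to 0.664), and CNOT3 lost its call in shCXCR4 II. Quantile normalization ended the calls of CNOT6L, DCP1B and PAN3 in shCXCR4 I and of CNOT1, CNOT6, CNOT6L, DCP1A, DCP1B and DDX6 in shCXCR4 II.

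Of 10 nuclear processing and export partners 5 fell in shCXCR4 I and 4 in shCXCR4 II, all 10 with a mean of at least 6, where 24% and 25.8% of genes that bright fell. Among them are the DROSHA-associated helicase DDX5 (-0.25 and -0.35), the cap-binding protein NCBP1 (-0.37 and -0.31) and SRRT (-0.41 and -0.24), which joins the cap complex to the Microprocessor. KHSRP, a binder of precursor loops, fell by 0.44 in shCXCR4 I against Mock and by 0.46 against Parental. The KHSRP call against Parental ended with the mean of its probe sets. DHX9 had the largest fall of this list in shCXCR4 I, at -0.47 against Mock and against Parental (limma adjusted p = 0.0383 and 0.0467). Both DHX9 calls ended without single arrays, after quantile normalization and with the replicate number as a block. Of 22 loading partners and chaperones 4 fell in shCXCR4 I and 7 in shCXCR4 II, or 18.2% and 31.8%, where 12.2% and 13.5% of all genes fell. With a mean of at least 6, 4 of 20 (20%) and 7 of 20 (35%) fell, against 24% and 25.8% of genes that bright. FXR1 (-0.55 and -0.32), the Argonaute-binding helicase MOV10 (-0.50 and -0.45), the chaperone organizer STIP1 (-0.50 and -0.30) and TSN (-0.35 and -0.36), a subunit of the endonuclease that clears the passenger strand, fell in both. Against Parental, SND1 had -0.29 in Mock, -0.25 in shCXCR4 I and -0.27 in shCXCR4 II, and each call ended without Parental replicate 3. Its -0.27 for the mean of the hairpin groups (limma adjusted p = 0.00433) held under every alternative tried. GEMIN4 had 0.23 in Mock and 0.26 in shCXCR4 II against Parental, and LIMD1 had -0.34 in shCXCR4 II. The GEMIN4 and LIMD1 calls against Parental ended when any single Parental array was left out. The calls of DDX5 in shCXCR4 I ended without shCXCR4 I replicate 1 or 2 or Mock replicate 2 (limma adjusted p of up to 0.0609), those of NCBP1, SRRT and STIP1 in shCXCR4 II without shCXCR4 II replicate 2 among others (up to 0.0673), and those of FXR1, MOV10 and TSN held without any single array. Quantile normalization ended the calls of DDX5 in shCXCR4 I and of NCBP1 and SRRT in shCXCR4 II, the last 2 also when averaged over their probe sets.

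The shares of modifiers, sensors and PIWI genes called against Mock stand beside 20.6% of all genes in shCXCR4 I and 22.5% in shCXCR4 II. Of 13 modifiers 3 (23.1%) fell in each line, the editing enzymes ADAR (-0.27 and -0.30) and ADARB1 (-0.33 and -0.36) and the uridylating TUT4 (-0.25 and -0.36), and HENMT1, a small RNA methyltransferase, rose against Parental by 0.39 in Mock, 0.29 in shCXCR4 I and 0.33 in shCXCR4 II. PARN had -0.26 in shCXCR4 I and -0.24 in shCXCR4 II against Parental. Both PARN calls ended without Parental replicate 3, among other arrays, and after quantile normalization. Of 9 sensors 1 (11.1%) fell in shCXCR4 I and 5 (55.6%) in shCXCR4 II. OAS3, an interferon-induced sensor, had 6.49, 6.34 and 6.34 in shCXCR4 I, 6.34, 6.27 and 6.28 in shCXCR4 II, 6.69, 6.83 and 7.26 in Mock and 6.36, 6.43 and 6.43 in Parental cells. It rose by 0.52 in Mock against Parental (SE 0.11, limma adjusted p = 0.00932) and fell by 0.54 and 0.63 in the lines against Mock. TLR3 fell in shCXCR4 II by 0.59 against Mock, with -0.07 in shCXCR4 I. Of 8 PIWI pathway genes 1 (12.5%), the germline Argonaute PIWIL2, rose in both lines against Mock (0.41 and 0.37), at a mean log2 value under 5 in all groups. The calls of ADAR, ADARB1 and PIWIL2 in each line, and of TUT4 in shCXCR4 I, ended without shCXCR4 I replicate 3 or shCXCR4 II replicate 2 or Mock replicates 2 or 3 among others, with limma adjusted p of up to 0.155. Quantile normalization ended those of ADAR and PIWIL2 in each line and of TUT4 in shCXCR4 I, and averaging over probe sets ended those of ADARB1 and PIWIL2.

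Transcripts that host microRNAs, the substrates of DROSHA, moved in both directions, and a host's level is not the level of its microRNA. Of 23 measured hosts, 5 fell and 1 rose in each line against Mock, or 26.1% called, close to the 20.6% and 22.5% of all genes. The host that rose was VMP1 in shCXCR4 I and MEG3 in shCXCR4 II. MEG3 rose by 0.28 (limma adjusted p = 0.0457) at a mean log2 value of 4.42, and this call ended under 14 of 20 alternatives. SMC4, host of miR-15b and miR-16-2, had 9.20, 9.14 and 9.09 in shCXCR4 I, 9.42, 9.41 and 9.40 in shCXCR4 II, 9.79, 9.75 and 9.89 in Mock and 9.67, 9.76 and 9.74 in Parental cells. It fell by 0.67 in shCXCR4 I (SE 0.06, limma adjusted p = 9.29e-06) and by 0.40 in shCXCR4 II (SE 0.06, limma adjusted p = 0.000847) against Mock, and the lines did not overlap Mock or Parental. MIRLET7BHG, host of let-7a-3 and let-7b, fell by 0.60 and 0.42, CTDSP2, host of miR-26a-2, by 0.34 and 0.32, and HOXB3, whose locus holds miR-10a, by 0.20 and 0.56. MCM7, host of the miR-106b cluster, fell by 0.47 in shCXCR4 I and had -0.06 in shCXCR4 II, and VMP1, host of miR-21, rose by 0.87 in shCXCR4 I (SE 0.16, limma adjusted p = 0.00177) with 0.30 in shCXCR4 II. MIR210HG rose by 0.33 in Mock against Parental (limma adjusted p = 0.0319) at a mean log2 value of 4.95. That call ended when any single Parental array was left out. The HOXB3 call in shCXCR4 I ended without any of 10 arrays (limma adjusted p of up to 0.136), the MIRLET7BHG calls ended with the mean of its probe sets, and those of CTDSP2 after quantile normalization.

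The mature microRNAs of these hosts are printed from RefSeq (GRCh38.p14) with the seed, bases 2 to 8, in capitals, for the hosts described above except MEG3 and MIR210HG. The pairs from MIRLET7BHG (let-7a-5p at chr22:46112752-46112773 and let-7b-5p at chr22:46113691-46113712, plus strand), from SMC4 (chr3:160404607-160404628 and chr3:160404754-160404775, plus strand) and from MCM7 (miR-106b-5p at chr7:100094043-100094063 and miR-93-5p at chr7:100093815-100093837, minus strand) each share a seed within their host:
let-7a-5p: uGAGGUAGuagguuguauaguu
let-7b-5p: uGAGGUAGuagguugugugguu
miR-15b-5p: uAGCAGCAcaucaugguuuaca
miR-16-5p: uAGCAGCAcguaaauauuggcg
miR-106b-5p: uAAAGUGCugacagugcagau
miR-93-5p: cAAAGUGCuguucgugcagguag
miR-26a-5p: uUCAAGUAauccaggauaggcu
miR-10a-5p: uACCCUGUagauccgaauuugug
miR-21-5p: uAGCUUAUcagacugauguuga
Listed hosts that carry the same seeds, named for that and not by their values, passed in neither line against Mock. They are MIR100HG (0.10 in shCXCR4 I and 0.02 in shCXCR4 II) and MIR99AHG (0.14 and 0.16) with a let-7, DLEU2 (-0.29 and 0.02) with miR-15a and miR-16, MIR17HG (-0.14 and -0.12) with miR-17 and miR-20a, and CTDSP1 (-0.17 and -0.15) and CTDSPL (-0.09 and -0.11) with a miR-26. Mean log2 values were 1.78 for MIR17HG, 1.86 for MIR100HG and 2.46 for MIR99AHG. For these dim hosts a missing call does not show an unchanged transcript. miR-26a-5p lies at chr12:57824658-57824679 on the minus strand, miR-10a-5p at chr17:48579904-48579926 on the minus strand and miR-21-5p, in VMP1, at chr17:59841273-59841294 on the plus strand.

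Over the 12 arrays, the genes whose profiles were most like those of the members on their brightest probe sets, among about 8347 genes with a mean of at least 6, are given as a description, with array and group differences shared by all points. TNRC6A followed ABCB6 (Pearson r = 0.966) and ANLN (0.962), and AGO2 followed RSL1D1 (0.977) and SLC25A39 (0.929). DROSHA followed ALDH3B1 (0.949) and SON (0.946), XPO5 followed KDM2B (0.944) and RALGAPA2 (0.941), and DICER1 followed SYTL1 (0.929) and WDFY3 (0.927). AGO3 followed HSPB1 (0.928) and EIF3J (0.926), AGO4 followed SEPTIN2 (0.931) and KIAA1958 (0.838), TARBP2 followed TNNT1 (0.909) and TRIAP1 (0.882), and AGO1 followed NOL9 (0.869) and GINS4 (0.869). No member was among another member's 2 most like genes.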

How the data were processed

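Total RNA of IGROV-1 cells was measured on 12 Affymetrix U133 Plus 2.0 arrays, 3 in each of 4 groups taken from the sample titles. The values deposited by the authors are on the log2 scale, and per the submitters' processing notes they come from RMA in R 2.6.0. The notes do not name the steps within RMA or a chip definition file. Each array has its own column. No counts lie behind them, and the number of arrays limits the precision.

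Of 54675 probe sets, 41097 have 1 gene symbol in the platform annotation, 1801 have several and were not used. Entrez identifiers of 41043 matched RefSeq, which changed 0 symbols. limma 3.58.1 (R 4.3.3) fitted group means over all 12 arrays and all 41097 probe sets (lmFit and eBayes, 8 residual and 5.66 prior degrees of freedom), with 7 contrasts and Benjamini-Hochberg adjustment over all probe sets in each. A gene was counted by its probe set of highest mean (19775 genes). The procedure was tested on simulated data. The members and gene lists were chosen with earlier results of these data known. Named from the lists were the genes past the test with the largest rise and fall of each comparison, those past it in both lines against Mock without overlap, and TNRC6B and TNRC6C. EGFL7, and genes given under the results flagged below, are named because they passed between the lines.

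Alternatives were 1 probe set per gene, the mean over probe sets of a gene, no _x_at or _s_at probe sets, quantile normalization, median centring, a trended robust variance, array weights, a filter on low values, only the groups compared, the replicate number as a block and leaving out each array. Replicate numbers appear in all groups, but arrays of the same number correlated at -0.10 to 0.18 in their deviations from the group means and those of other numbers at -0.21 to 0.26, so the numbers were not taken to pair the arrays. Figures were drawn with matplotlib 3.10.9.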

Additional observations from a re-analysis of the deposited data

Results flagged for a closer look

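The change against Mock differed between the lines on 7 probe sets of the members and lists, tested as shCXCR4 I minus shCXCR4 II in the limma fit. They are 1 of 31 member probe sets (3.23%), where 4.11% of all probe sets passed, and 6 of 105 listed genes (5.71%), where 5.21% of all genes passed. Both shares lie near those of the array. AGO1 228120_at, the 1 member among them, had -0.40 against Mock in shCXCR4 I and 0.04 in shCXCR4 II, a difference of -0.44 (limma adjusted p = 0.03). Among the microRNA hosts, MCM7 had a difference of -0.41 (limma adjusted p = 0.0018), MEG3 of -0.37 (limma adjusted p = 0.0329), EGFL7, host of miR-126, of -0.32 (limma adjusted p = 0.0477) and SMC4 of -0.27 (limma adjusted p = 0.0305), while HOXB3 differed by 0.36 (limma adjusted p = 0.00542). The sensor TLR3 differed by 0.52 (limma adjusted p = 0.00511), with -0.07 in shCXCR4 I and -0.59 in shCXCR4 II against Mock. The calls of MCM7 and TLR3 held under every alternative tried and that of HOXB3 ended with the mean of its probe sets. Those of AGO1, MEG3, SMC4 and EGFL7 ended when single arrays were left out, given for AGO1 above. The SMC4 call ended without any shCXCR4 I array or without shCXCR4 II replicate 1 or 2 (limma adjusted p = 0.0591 to 0.123), and the EGFL7 call without any of 10 arrays (limma adjusted p = 0.0556 to 0.178). Both also ended after centring (limma adjusted p = 0.0537 and 0.0566), with the replicate number as a block (0.0596 and 0.0742) and with only the groups compared (0.0957 and 0.138), and EGFL7 without _x_at and _s_at probe sets (0.0556). The MEG3 call ended without shCXCR4 I replicate 2 or 3 or shCXCR4 II replicate 1 or 2 (limma adjusted p = 0.0786 to 0.138), with the mean of its probe sets (0.527) and with only the groups compared (0.0801).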

How the results depend on the processing

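Over the differences of the member probe sets, 4144 of the alternatives' values kept direction and side of the threshold, 122 lost the call and 99 gained one, and no called difference of a member changed sign. Endings of the calls of list genes are given beside them in the report and are not in these numbers. Counts of members called (of 31 probe sets in the reported analysis) moved by over 1.5 times as follows. With 1 probe set per gene they were 1 for the hairpin groups against Parental, 5 for shCXCR4 I against Mock, 2 and 1 for shCXCR4 I and shCXCR4 II against Parental, and 0 between the lines. With the mean of probe sets they were 4 and 2 for shCXCR4 I and shCXCR4 II against Mock and 1 for shCXCR4 I against Parental. These settings, like that without _x_at and _s_at probe sets (2 for Mock against Parental, 6 and 2 for the lines against Mock, 3 for shCXCR4 I against Parental), test fewer probe sets of the members by construction. Quantile normalization gave 5 for the hairpin groups, 5 and 3 for the lines against Mock and 2 between the lines, and centring gave 7 for Mock and 2 for shCXCR4 II against Parental. The trended robust variance gave 5 for the hairpin groups and 7 for Mock against Parental, and array weights gave 5 for the hairpin groups and 2 between the lines. The filter at a mean of 6 gave 7 for Mock against Parental and 4 between the lines, the upper 50% gave 3 between the lines, and only the groups compared gave 2 for shCXCR4 II against Mock. The share of all calls that were higher in shCXCR4 II against Parental was 38.9%, 45.9% after quantile normalization and 26.4% after centring.

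Among the wider genes, 1 probe set per gene gave 10 between the lines. Without _x_at and _s_at probe sets the counts were 10 for the hairpin groups, 19 and 22 for the lines against Mock, 11 and 11 for the lines against Parental and 3 between the lines, of 88 genes measured. Quantile normalization gave 22 for shCXCR4 II and centring 47 for shCXCR4 I against Mock. The trended robust variance gave 29 for Mock against Parental, 45 for shCXCR4 I against Mock, 28 for shCXCR4 II against Parental and 11 between the lines, as both filters on low values did (11 each). Only the groups compared gave 20 for shCXCR4 II against Mock, 11 for shCXCR4 II against Parental and 3 between the lines. For the settings other than those on probe sets, the cause was not tested.

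Leaving out each array gave 5 to 10 member calls for shCXCR4 I and 2 to 6 for shCXCR4 II against Mock, 2 to 6 and 1 to 4 for the lines against Parental, 2 to 6 for Mock and 1 to 4 for the hairpin groups against Parental, and 0 to 1 between the lines. For the wider genes the ranges were 22 to 33, 23 to 36, 13 to 21, 9 to 19, 8 to 21, 7 to 18 and 3 to 9 in the same order of comparisons. With the replicate number as a block, members called were 10, 5, 5, 4, 5, 3 and 1 and wider genes 26, 38, 17, 17, 14, 13 and 4 in that order, and no count moved by over 1.5 times. Of the 12 arrays 3 correlated best with their own number. Only the groups compared could not be fitted for the hairpin groups, which hold all 4 groups.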
